A study of Mus musculus with 185 samples.

Results

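The genes described here are 39 genes of the core machinery of autophagy, taken from a fixed list of gene symbols and sorted by the step at which their products act. The count matrix held 57010 genes, and all 39 were found in it and passed the filter on low counts in both studies. They comprise 5 genes of initiation, 6 of nucleation, 6 of phagophore expansion, 10 of the conjugation enzymes, 5 of the LC3 and GABARAP family, 5 cargo receptors and 2 transcription factors.

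The tissue came from male C57BL/6 J mice, 8 weeks old, with no genetic change in any group. In the 16 h study, pair-housed mice either stayed on chow, were switched to a high-fat diet (HFD) or were fasted, with 6 mice in 3 cages for each diet. In the 24 h study, single-housed mice either stayed on chow (9 mice) or were fasted (10 mice). Bulk RNA-seq after rRNA depletion was made from 5 dissected brain regions of each mouse. The headings of the deposited columns name the mouse but not the region, so the values below are sums over the 5 columns of a mouse, which is the replicate. They describe dissected brain tissue as a whole, in which fewer cells of a type and less RNA per cell cannot be told apart. Columns were added with their own depth, from 2994 to 65973281 counts, so the weight of a region in the sum differs between mice. The neuronal and glial markers examined all passed the filter on low counts at 24 h, with summed levels of 8 neuronal markers between 2678 and 4571 counts per 1000000 counted reads (CPM) in the 24 h study.

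Autophagy is the pathway by which a cell encloses part of its own cytoplasm in a double membrane, the phagophore, and delivers it to the lysosome for breakdown. Nutrient loss relieves the ULK1 kinase complex of inhibition by mTORC1, a lipid kinase complex built on Beclin 1 and VPS34 then marks the site, and 2 ubiquitin-like conjugation systems attach proteins of the LC3 and GABARAP family to the growing membrane. Much of this control acts on proteins, so transcript levels do not measure how much autophagy takes place. In neurons the pathway is known for clearing protein aggregates and damaged organelles.

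Counts per mouse ran from 57962237 to 161577364, and the lowest count of any member in any mouse was 318, for Atg4a. Mitochondrial transcripts took 3.78% to 4.98% of the counts in the 16 h study and 8.57% to 16.7% in the 24 h study. Over all mice, 27 columns were low in counts or genes. In the 16 h study 4 were low, 1 in chow, 3 in fasted and 0 in HFD mice. The 27 low columns stayed in the sums. Without them 10 members were called up and 1 down at 24 h and 0 in each comparison at 16 h. Libraries that the authors failed as outliers in a principal component analysis are in the sums, in each of the groups. So are libraries that they failed for low alignment. Most belong to a block of 24 h libraries without detectable RNA, run on a separate flowcell, which the authors discarded. The fit without low columns does not remove all of these, as mouse 1445 has such a library and 0 low columns. The methods state that 1 pair of libraries, from mice 1423 (chow) and 1454 (fasted), had been swapped and was corrected by the authors.

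Levels of the members can be set side by side only per length of exon. In the chow mice of the 24 h study, the members spanned from 0.965 to 68.2 CPM per kb of exon. The highest level was that of Gabarapl1, a GABARAP family protein that binds the phagophore and its cargo receptors, followed by Map1lc3a at 63.7, Gabarap at 37.5 and Sqstm1 at 36.5 CPM per kb. Sqstm1 encodes p62, the receptor that links ubiquitinated cargo to LC3. The cargo receptor Nbr1 followed at 19.5 and the mitophagy receptor Bnip3l at 14.4 CPM per kb. Map1lc3b, whose product is the usual protein marker of autophagosomes, stood at 13.8 CPM per kb, close to Gabarapl2 at 12.7.

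The initiation kinases Ulk2 and Ulk1 stood at 12.4 and 10.6 CPM per kb and their scaffold Rb1cc1, which encodes FIP200, at 8.16. The lowest levels were those of Wdr45 at 0.965, of the LC3 protease gene Atg4a at 1.17 and of Atg10, the E2-like enzyme for ATG12, at 1.66 CPM per kb. The union of all annotated exons was used as the length, which lowers the value of a gene with long minor isoforms.

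**Figure D1:**
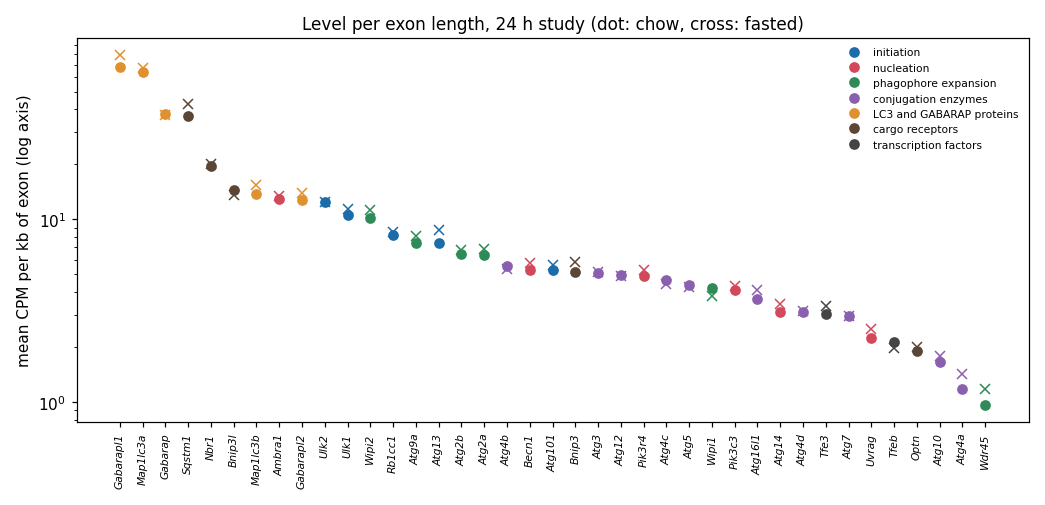
Mean CPM per kb of exon of each of the 39 genes in the 24 h study on a log axis, with dots for 9 chow mice, crosses for 10 fasted mice and colours for the steps. The LC3 and GABARAP genes and Sqstm1 lie at the left, with Gabarapl1 at 68.2 in chow, and Wdr45 is the lowest at 0.965.

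The members differed in how evenly they were expressed over the columns of a mouse, which stand for regions that are not named here. Optn, a receptor for ubiquitinated cargo and damaged mitochondria, varied most, with a median ratio of the highest to the lowest column of 2.74 at 16 h and 1.97 at 24 h. The transcription factor gene Tfeb came second, with median ratios of 2.23 and 1.62. Rb1cc1 varied little, with a median ratio of 1.13 in both studies, and Atg12, the ubiquitin-like modifier joined to ATG5, had ratios of 1.15 and 1.12. Low columns were left out of these ratios.

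The first question was whether 16 h without food changed the expression of the machinery. No member passed the test in fasted against chow mice (edgeR quasi-likelihood test, Benjamini-Hochberg adjusted p under 0.05 over 29746 genes), where 0.00% of all genes did. The lowest adjusted p of a member was 0.583, and DESeq2 called no member in any comparison at 16 h. Fold changes of the members lay between -0.14 and 0.10 on the log2 scale with a median of 0.01, beside a median of 0.00 for all genes tested, and their standard errors had a median of 0.038. Of the 39, 24 were higher and 15 lower in the fasted mice.

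At an unadjusted p under 0.05, where 2267 of the 29746 genes lay, there were 2 of the 39 members, a smaller share than of all genes. Atg13, the adaptor that holds the ULK1 complex together, ranged from 92.3 to 101.01 CPM with a median of 94.6 in the 6 chow mice and from 95.8 to 104.07 with a median of 99.3 in the 6 fasted mice, a log2 fold change of 0.06 ± 0.03 (SE, unadjusted p = 0.0380, edgeR). Atg4d, 1 of the 4 ATG4 proteases that trim LC3 and release it from membranes, ranged from 30.1 to 38.3 CPM with a median of 32.7 in chow and from 29.1 to 31.7 with a median of 29.8 in fasted mice, a log2 fold change of -0.13 ± 0.05 (SE, unadjusted p = 0.0150, edgeR). The diets overlapped for both genes.

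The switch to HFD for 16 h was compared with chow in the same way. Again no member passed, as was the case for 0.00% of all genes, and the lowest adjusted p of a member was 0.503 by edgeR. Of the 39 members, 19 were higher and 20 lower on HFD, with a median log2 fold change of 0.00. At an unadjusted p under 0.05 there were 3 of the 39 members, beside 2914 of the 29746 genes. The share of members is again the smaller, and the 3 are described below for their values only.

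Atg101, the partner of ATG13 in the ULK1 complex, ranged from 11.6 to 13.6 CPM with a median of 11.8 in chow and from 13.0 to 15.3 with a median of 13.5 on HFD, a log2 fold change of 0.19 ± 0.06 (SE, unadjusted p = 0.00638, edgeR). Becn1, which encodes Beclin 1, ranged from 37.7 to 40.6 CPM with a median of 39.5 in chow and from 40.6 to 43.0 with a median of 41.5 on HFD, a log2 fold change of 0.08 ± 0.03 (SE, unadjusted p = 0.0138, edgeR). Optn ranged from 20.2 to 24.0 CPM with a median of 22.5 in chow and from 15.6 to 21.7 with a median of 19.5 on HFD, a log2 fold change of -0.22 ± 0.08 (SE, unadjusted p = 0.0153, edgeR). The 2 diets did not overlap for Becn1, by a narrow margin, and overlapped for Atg101 and Optn. How many of all genes show no overlap was not counted, so the separation of Becn1 is a description only. Optn is also the member that varied most over the columns of a mouse.

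Fasted mice were also set against HFD mice, the widest dietary contrast at 16 h. None of the members passed, beside 65 of 29746 genes, or 0.219%. That count of genes was not stable. It was 354 by DESeq2, 2 without HFD mouse 18 and 0 without fasted mouse 11 or with the counts of a cage added up, and it moved by over 1.5 times in 14 of the 18 fits without 1 mouse. At an unadjusted p under 0.05 there were 6 of the 39 members, beside 3386 of the 29746 genes. Here the share of members is the larger, and no test of these shares was made. The lowest adjusted p among the members was 0.175, for Atg10, by edgeR. Atg10, Atg13, Atg4a and Optn were higher in fasted than in HFD mice, with log2 fold changes of 0.17, 0.09, 0.15 and 0.21. Atg101 and Atg12 were lower, with log2 fold changes of -0.16 and -0.09. This comparison shares its fasted and HFD mice with the comparisons against chow.

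Atg10 ranged from 6.70 to 7.67 CPM with a median of 7.28 on HFD and from 7.79 to 8.89 with a median of 7.96 in fasted mice. The diets did not overlap for Atg10, again without a count over all genes to set beside it. Atg4a, with a median of 7.01 CPM on HFD and 7.74 when fasted, and Atg12, with 54.9 and 52.6, did overlap. With pair-housed mice, cage mates are not fully independent, and with the counts of a cage added up, 3 cages to a diet, no member passed either.

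**Figure D2:**
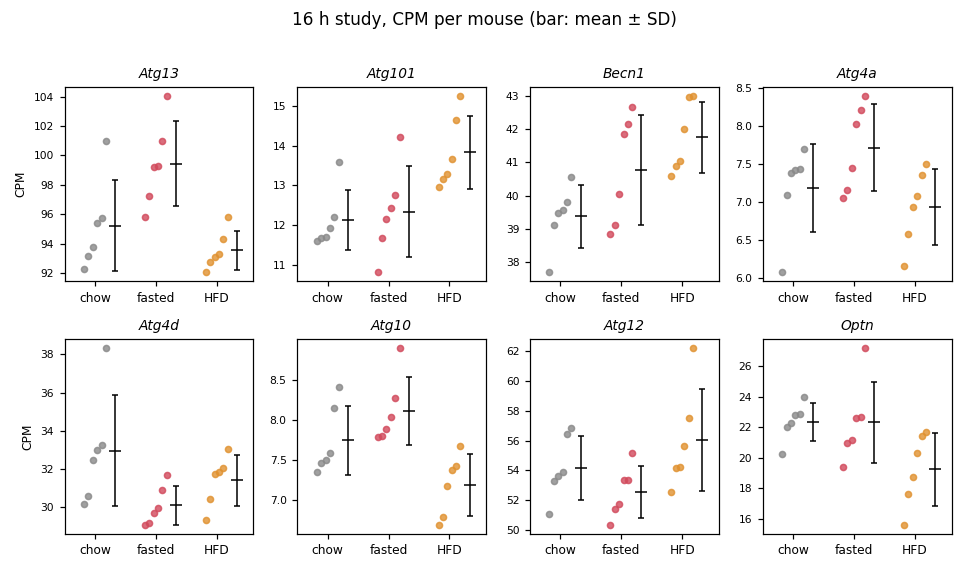
CPM per mouse in the 16 h study, on axes that do not start at 0, for the 8 members at an unadjusted p under 0.05 in any of the 3 comparisons, with 6 mice to a diet, points sorted by value within a diet, and bars for the mean ± SD. The HFD mice have the highest mean for Atg101, with 13.0 to 15.3 CPM, and the lowest for Optn and Atg10, and none of the members passed the adjusted test.

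Members passed the test in the 24 h study, in fasted against chow mice. Whether this differs from 16 h is a separate test, given further below. Of the 39 members, 9 rose and 1 fell (edgeR, adjusted p under 0.05), or 23.1% and 2.56% of them. In all, 11.4% of the 29011 genes tested were called, 5.78% up and 5.62% down. Among the 11500 genes with a mean CPM within the range of the members, 8.72% rose and 5.21% fell. The share of members that rose is thus above both backgrounds and the share that fell, which is Wipi1 alone, is below them. No test of these shares was made. The members were chosen with earlier results of these data known, so the shares are a description only. Of the members, 31 were higher in fasted mice, with a median log2 fold change of 0.09, beside 0.00 for all genes tested and 0.03 for genes in the same range of CPM, of which 58.0% were higher.

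The changes were small. The called members rose by 10.2% to 21.9%, and Wipi1 fell by 9.99%. Chow and fasted mice overlapped in CPM for each of the 39 members. How many of all genes show no overlap was not counted here either.

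**Figure D3:**
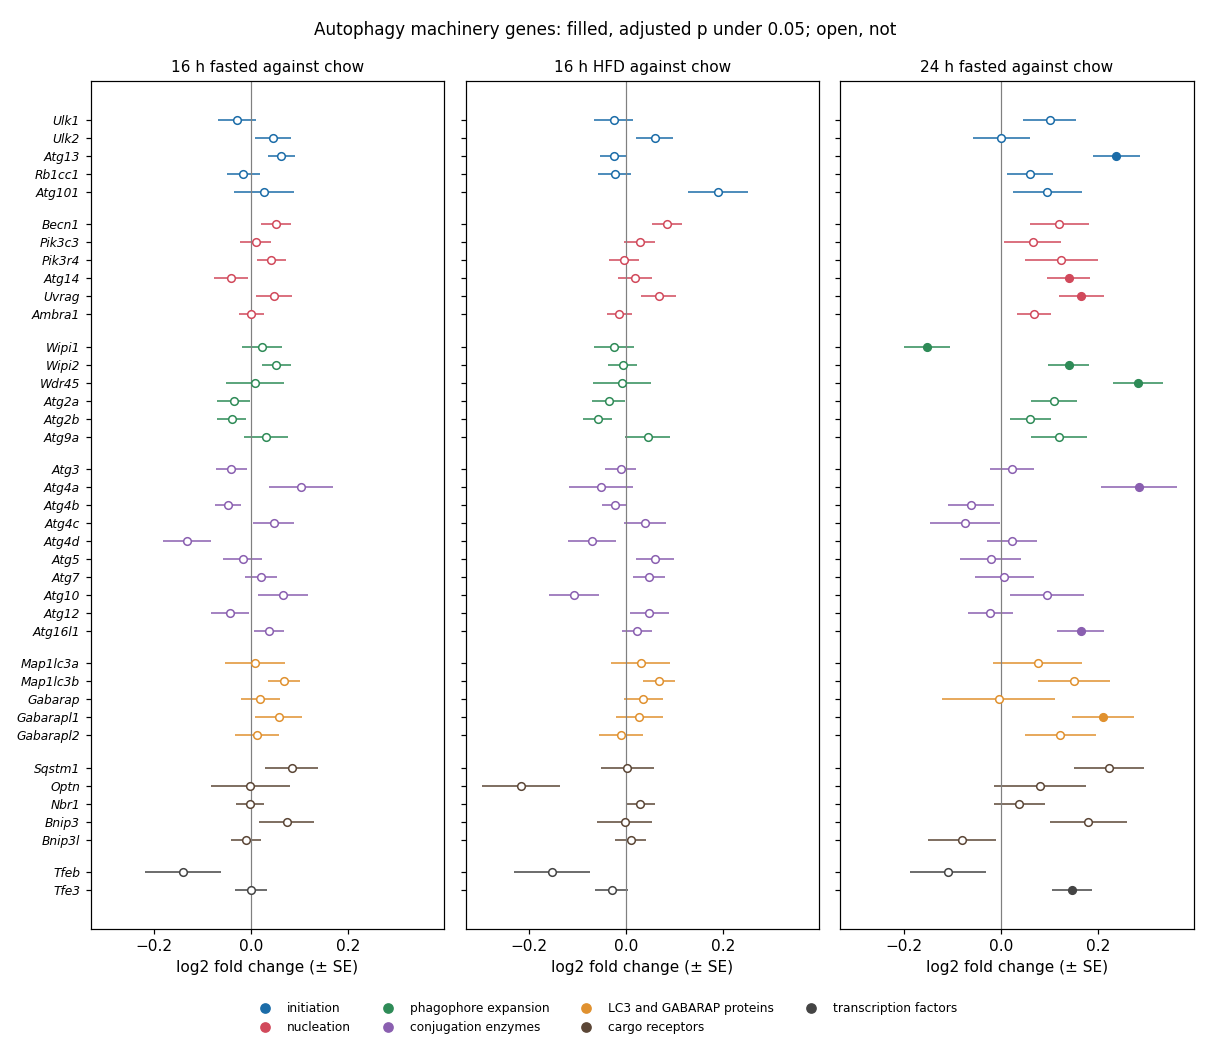
Log2 fold change ± SE of each of the 39 genes at 16 h (fasted and HFD against chow, 6 mice a diet) and at 24 h (10 fasted against 9 chow mice), coloured by step, with filled dots for an adjusted p under 0.05. All dots are open in both 16 h panels, while at 24 h 9 filled dots lie to the right of 0 and 1, Wipi1, to the left.

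In the initiation complex, Atg13 (chr2:91502602-91541186, minus strand, GRCm39) rose and the other 4 genes did not pass. Atg13 ranged from 68.1 to 84.7 CPM with a median of 78.4 in chow and from 79.2 to 101.6 with a median of 91.3 in fasted mice, a log2 fold change of 0.24 ± 0.05 (SE, adjusted p = 0.00259, edgeR). All 10 fasted mice lay above the chow median and 8 above every chow mouse. The scaffold gene Rb1cc1, the member of this step with the most counts, ranged from 120.1 to 144.6 CPM with a median of 131.1 in chow and from 122.8 to 162.1 with a median of 134.5 in fasted mice (log2 fold change 0.06 ± 0.05, SE). Ulk1, Ulk2 and Atg101 had log2 fold changes of 0.10, 0.00 and 0.10, with adjusted p-values by edgeR of 0.285, 0.994 and 0.446. The exons of Atg13 share 32.8% of their bases with Arhgap1 on the opposite strand, and Arhgap1 had a log2 fold change of 0.04 (adjusted p = 0.654, edgeR).

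Among the genes of nucleation, Uvrag and Atg14 rose. Their products are alternative subunits of the Beclin 1 and VPS34 complex, ATG14 at the site where the phagophore forms and UVRAG on endosomes and later stages. Uvrag (chr7:98533079-98790496, minus strand) ranged from 34.9 to 42.6 CPM with a median of 39.3 in chow and from 38.4 to 49.1 with a median of 45.0 in fasted mice, a log2 fold change of 0.17 ± 0.05 (SE, adjusted p = 0.0235, edgeR). Atg14 (chr14:47778235-47808106, minus strand) ranged from 14.2 to 16.3 CPM with a median of 15.4 in chow and from 15.7 to 20.0 with a median of 16.7 in fasted mice, a log2 fold change of 0.14 ± 0.04 (SE, adjusted p = 0.0467, edgeR). For each of them 8 of 10 fasted mice lay above every chow mouse, but the call of Atg14 held in only 4 of the 19 fits that left out 1 mouse, whereas that of Uvrag held in all 19.

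The shared subunits of the complex did not pass. Becn1, Pik3c3 (VPS34 itself) and Pik3r4 (its regulatory subunit VPS15) had log2 fold changes of 0.12, 0.07 and 0.12, with adjusted p-values by edgeR of 0.235, 0.550 and 0.336. Ambra1, a regulator of Beclin 1 and the member of this step with the most counts, ranged from 80.8 to 92.1 CPM with a median of 88.1 in chow and from 86.2 to 96.4 with a median of 91.9 in fasted mice (log2 fold change 0.07 ± 0.03, SE, adjusted p = 0.232, edgeR). All 6 genes of nucleation were higher in fasted mice.

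Phagophore expansion held calls in both directions. Wdr45, which encodes WIPI4, a PROPPIN protein that binds the lipid made by VPS34 and works with the lipid transfer protein ATG2, rose with the lowest adjusted p of the members. Wdr45 (chrX:7580570-7594519, plus strand) ranged from 6.25 to 7.15 CPM with a median of 6.63 in chow and from 7.02 to 8.91 with a median of 8.32 in fasted mice, a log2 fold change of 0.28 ± 0.05 (SE, adjusted p = 0.000850, edgeR). Of the fasted mice 9 of 10 lay above every chow mouse. A further protein-coding model on the same strand, Gm45208, shares 11.8% of the exon bases of Wdr45, and reads on these bases cannot be assigned.

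Wipi2, the family member that recruits ATG16L1 to the phagophore and the gene of this step with the most counts, also rose. Wipi2 (chr5:142613453-142656343, plus strand) ranged from 102.9 to 116.8 CPM with a median of 111.9 in chow and from 113.4 to 132.1 with a median of 120.8 in fasted mice, a log2 fold change of 0.14 ± 0.04 (SE, adjusted p = 0.0353, edgeR). Its close relative Wipi1 (chr11:109464156-109502793, minus strand) fell, from a range of 22.4 to 26.5 CPM with a median of 24.4 in chow to 19.7 to 24.2 with a median of 22.4 in fasted mice, a log2 fold change of -0.15 ± 0.05 (SE, adjusted p = 0.0447, edgeR). No fasted mouse exceeded the chow median of Wipi1 and 5 of 10 lay below every chow mouse. The call of Wipi2 held in 12 and that of Wipi1 in 7 of the 19 fits without 1 mouse.

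The lipid transfer genes Atg2a and Atg2b and the scramblase gene Atg9a had log2 fold changes of 0.11, 0.06 and 0.12 and did not pass, with adjusted p-values by edgeR of 0.157, 0.425 and 0.210.

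Of the 10 conjugation enzymes, Atg4a and Atg16l1 rose and 8 did not pass. Atg16l1 encodes the subunit that places the ATG12-ATG5 conjugate, the E3-like enzyme for LC3, on the membrane that WIPI2 marks. Atg16l1 (chr1:87683592-87720150, plus strand) ranged from 44.9 to 50.4 CPM with a median of 49.0 in chow and from 49.2 to 64.8 with a median of 53.0 in fasted mice, a log2 fold change of 0.16 ± 0.05 (SE, adjusted p = 0.0315, edgeR). All 10 fasted mice lay above the chow median, and the call held in 17 of the 19 fits without 1 mouse.

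Atg4a, a protease of the GABARAP proteins above all, had the largest rise in size among the called members. Atg4a (chrX:139854582-139947293, plus strand) ranged from 5.02 to 6.15 CPM with a median of 5.65 in chow and from 5.46 to 8.67 with a median of 6.85 in fasted mice, a log2 fold change of 0.29 ± 0.08 (SE, adjusted p = 0.0218, edgeR). Its level was among the lowest, and the spread was wider in fasted mice, with an SD of 0.992 CPM against 0.370 in chow. A transcript of Atg4a-ps matched 94.9% of the canonical Atg4a transcript at an identity of up to 99.3%, so the reads that can be assigned to Atg4a alone are a part of its reads. Among annotated transcripts of genes that share no exon with it, no other member had such a copy over 50% or more of its transcript at 95% identity.

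The rest of the conjugation enzymes went in both directions. Log2 fold changes were 0.02 for the E2-like Atg3, 0.01 for the E1-like Atg7, -0.02 for Atg5, -0.02 for Atg12, 0.09 for Atg10, -0.07 for Atg4c and 0.02 for Atg4d, with adjusted p-values of 0.502 to 0.967 by edgeR. Atg4b, the protease gene with the most counts of this step over all mice of the 24 h study, ranged from 49.6 to 60.9 CPM with a median of 53.4 in chow and from 46.3 to 59.2 with a median of 51.9 in fasted mice (log2 fold change -0.06 ± 0.05, SE, adjusted p = 0.470, edgeR). The median over the 10 enzymes was 0.01, the lowest of the 7 groups.

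In the LC3 and GABARAP family, Gabarapl1 rose, which was already the member with the highest level per kb. Gabarapl1 (chr6:129509725-129520544, plus strand) ranged from 228 to 284 CPM with a median of 248 in chow and from 250 to 352 with a median of 283 in fasted mice, a log2 fold change of 0.21 ± 0.06 (SE, adjusted p = 0.0360, edgeR). All 10 fasted mice lay above the chow median, 5 of them above every chow mouse, and the call held in 10 of the 19 fits without 1 mouse. An antisense RNA, 1700101I11Rik, covers 31.0% of its exon bases, at 0.779 CPM in chow and 0.940 in fasted mice (adjusted p = 0.104, edgeR).

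Map1lc3b had a log2 fold change of 0.15 ± 0.07 (SE, adjusted p = 0.223, edgeR), with 92.01 to 115.99 CPM in chow and 98.2 to 155.5 in fasted mice. Map1lc3a and Gabarapl2 had log2 fold changes of 0.08 and 0.12 with adjusted p-values by edgeR of 0.684 and 0.320. For Gabarap the log2 fold change was 0.00 ± 0.12 (SE), the widest error of all members, with 66.1 to 118.7 CPM in chow and 65.99 to 117.2 in fasted mice.

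No cargo receptor passed the main test. Sqstm1 came closest, with 269 to 340 CPM and a median of 300.01 in chow and 289 to 439 with a median of 343 in fasted mice, a log2 fold change of 0.22 ± 0.07 (SE, adjusted p = 0.0521, edgeR). Of the fasted mice 9 of 10 lay above the chow median and 6 above every chow mouse. Sqstm1 passed in 6 of the 10 alternatives other than leaving out 1 mouse, DESeq2 among them. These 6 include the same fit read at an adjusted p under 0.1, which Sqstm1 could not fail. Its adjusted p was 0.0315 without low columns (edgeR) and 0.0128 with equal weight per column (limma). The mitophagy receptors Bnip3 and Bnip3l had log2 fold changes of 0.18 and -0.08, Optn of 0.08 and Nbr1 of 0.04, with adjusted p-values by edgeR of 0.161 to 0.729. With equal weight per column, Bnip3 passed as well, with a log2 fold change of 0.17 (adjusted p = 0.0246, limma).

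Of the 2 transcription factors of autophagy and lysosome genes, Tfe3 rose and Tfeb did not pass. Tfe3 (chrX:7628761-7641444, plus strand) ranged from 25.6 to 30.2 CPM with a median of 28.7 in chow and from 29.0 to 33.7 with a median of 31.3 in fasted mice, a log2 fold change of 0.15 ± 0.04 (SE, adjusted p = 0.0218, edgeR). All 10 fasted mice lay above the chow median and 7 above every chow mouse. Tfeb, the close relative, ranged from 11.4 to 17.8 CPM in chow and from 11.7 to 15.5 in fasted mice, a log2 fold change of -0.11 ± 0.08 (SE, adjusted p = 0.442, edgeR).

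**Figure D4:**
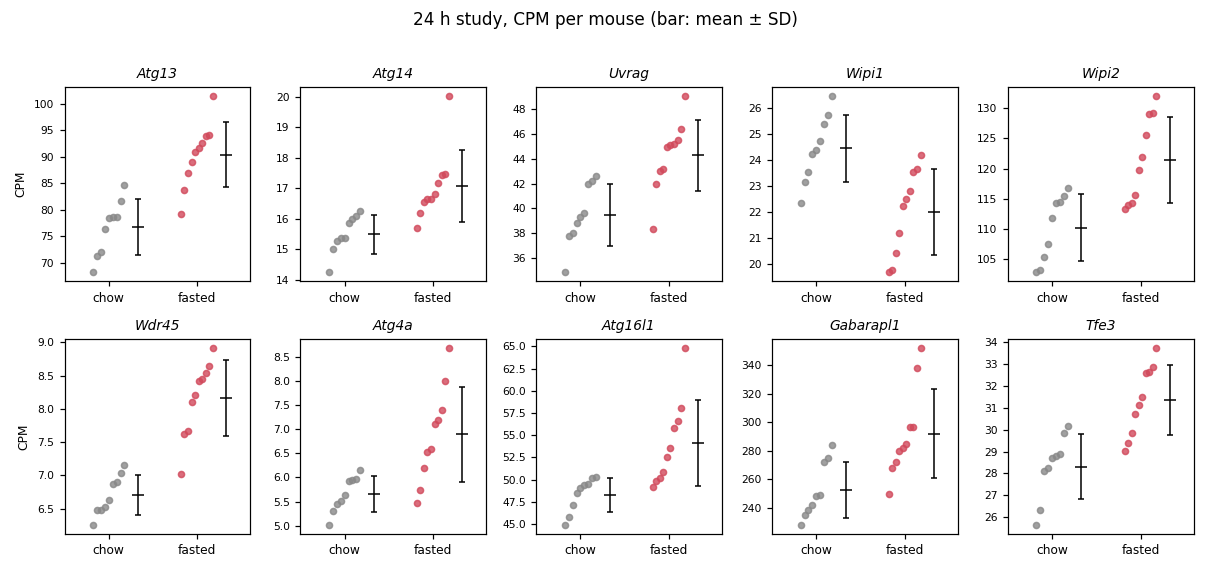
CPM per mouse in the 24 h study, on axes that do not start at 0, for the 10 members called, with grey points for 9 chow mice, red points for 10 fasted mice, points sorted by value within a diet, and bars for the mean ± SD. The fasted mice lie higher for 9 genes, among them Wdr45 with 9 of 10 above every chow mouse, and lower for Wipi1, and every pair of groups overlaps.

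TFE3 and TFEB bind E-boxes, and FoxO factors, which are also known to act on autophagy genes, bind a different motif, so the 250 bases before the canonical start site of each member were searched for both (GRCm39, GENCODE vM39, both strands). The E-box CACGTG, a palindrome, was present in 2 of the 39 members, Gabarap and Bnip3, or 5.13%, beside 6.26% of the 21757 protein-coding genes. The longer TCACGTGA, which contains it, was present in 0 members, beside 0.754% of all. The FoxO motif TGTTTAC, or GTAAACA on the other strand, was present in Becn1 alone, or 2.56%, beside 2.72%. None of the 9 members that rose held any of these letters in this window. The windows of Tfe3, which rose, and of Gabarap, which has an E-box and a log2 fold change of 0.00, are given as the examples of both cases that contain no annotated exon, with the E-box in capitals and all else in lower case. The Tfe3 window is chrX:7628511-7628760 and the Gabarap window chr11:69881638-69881887, both on the plus strand and read from 5′ to 3′.
Tfe3: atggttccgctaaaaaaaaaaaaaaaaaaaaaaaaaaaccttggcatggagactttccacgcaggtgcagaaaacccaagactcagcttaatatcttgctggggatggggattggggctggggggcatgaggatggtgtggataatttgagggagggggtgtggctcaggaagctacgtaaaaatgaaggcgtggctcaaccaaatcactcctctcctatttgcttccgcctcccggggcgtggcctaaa
Gabarap: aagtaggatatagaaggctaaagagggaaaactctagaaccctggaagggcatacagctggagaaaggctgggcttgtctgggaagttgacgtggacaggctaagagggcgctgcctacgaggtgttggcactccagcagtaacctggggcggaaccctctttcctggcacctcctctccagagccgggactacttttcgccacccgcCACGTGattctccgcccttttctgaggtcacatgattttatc
The E-box of Gabarap lies 37 to 42 bases before the start site.

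The calls at 24 h were not equally firm. Atg13, Uvrag, Wdr45, Atg4a and Tfe3 were called in all 19 fits that left out 1 mouse, and Atg13 and Wdr45 also in all 10 alternatives of other kinds. These 10 include the main fit read at an adjusted p under 0.1, in which no called member can be lost. Those without mouse 1452, 1422 or 1451, all on chow, called 5, 6 and 6 members. Without the mice 1423 and 1454, the 4 members called were Atg13, Wdr45, Atg4a and Tfe3. With counts scaled by library totals alone, the median log2 fold change of all genes moved to -0.06, and 3 members were called up (Atg13, Wdr45 and Gabarapl1) and 1 down (Wipi1). With that scaling 946 genes rose and 1848 fell, in place of 1676 and 1631, and 26 members were higher in fasted mice, with a median of 0.04. Without mouse 1435 the median of the members was 0.06, with 27 higher, in place of 0.09.

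**Figure D5:**
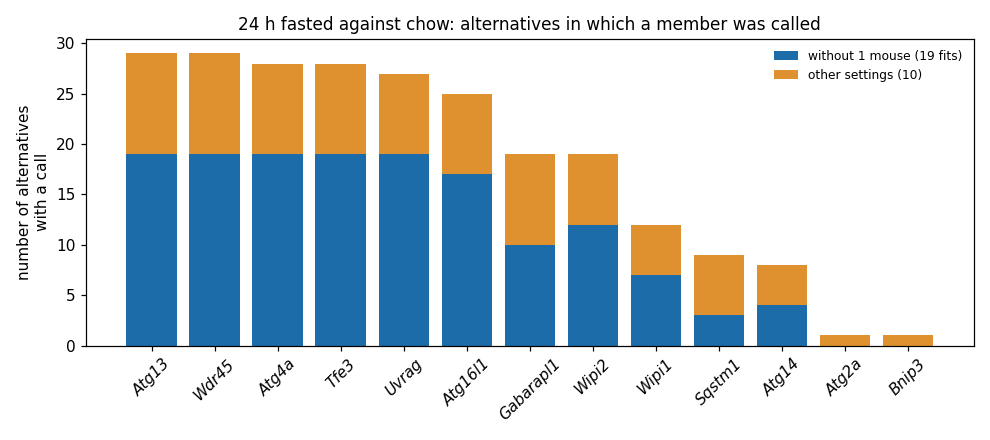
Number of alternatives of the 24 h comparison in which a member was called, out of 19 fits without 1 mouse (blue) and 10 other settings (orange), for the 13 members called in any. The other settings include the main fit read at an adjusted p under 0.1, in which no called member can be lost. Atg13 and Wdr45 reach the full height, while Atg14 was called in 4 fits without 1 mouse and Sqstm1, not called with all mice, in 3.

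Whether the effect of fasting at 24 h differed from that at 16 h was tested in 1 fit of all 37 mice. No member passed by edgeR, while 1.70% of the 30849 genes tested did. At an unadjusted p under 0.05 there were 8 members, beside 3343 of the 30849 genes. By DESeq2, 1 member passed, Wdr45 (adjusted p = 0.0283). For Wdr45 the difference came to 0.28 ± 0.08 on the log2 scale (SE, adjusted p = 0.0524, edgeR), with a fasting effect of 0.01 ± 0.06 (SE) at 16 h. Housing, the hemisphere sampled, sequencing run and 1 of the 5 regions also differed between the studies and cannot be told apart from the hours of fasting. The body weight of fasted mice changed by -1.30% to -7.52% in the 16 h study and by -17.1% to -21.4% in the 24 h study. The next lowest adjusted p was that of Atg14 at 0.106, with a difference of 0.18 ± 0.06 (SE).

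Genes of the neighbouring steps, taken from 4 lists, also held calls at 24 h, with 16 up and 1 down. Of 22 upstream kinases and mTORC1 genes, 5 rose and none fell, with a median log2 fold change of 0.08. Fnip2 and Fnip1, partners of folliculin in the nutrient signal to mTORC1 and TFE3, rose by 0.29 ± 0.06 and 0.20 ± 0.06 (SE, adjusted p = 0.00187 and 0.0457, edgeR). Of 27 other autophagy factors, 5 rose and none fell, with a median of 0.08. Bcl2l1, which encodes the survival protein BCL-xL that also binds Beclin 1, rose by 0.73 ± 0.07, and Foxo1, a transcription factor restrained by insulin, by 0.59 ± 0.19 (SE, adjusted p = 4.53e-07 and 0.0432, edgeR). The calls of Fnip1 and Foxo1 each held in 8 of the 19 fits without 1 mouse, and the log2 fold change of Foxo1 was 0.36 without fasted mouse 1445.

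Fusion with the lysosome had 3 of 17 genes up and none down, with a median of 0.07. Vps11, of the HOPS tether, rose by 0.21 ± 0.04, and Stx17, the SNARE of autophagosomes, by 0.17 ± 0.04 (SE, adjusted p = 0.00403 and 0.0144, edgeR). Of 33 lysosome genes tested, 3 rose and 1 fell, with a median of 0.07. The proteases Ctsl and Ctsf rose by 0.25 ± 0.07 and 0.23 ± 0.06 (SE, adjusted p = 0.0135 and 0.0154, edgeR), and Hexa, a subunit of the enzyme that degrades gangliosides, fell by 0.28 on the log2 scale (SE 0.05, adjusted p = 0.000407, edgeR). The shares called up lie between 9.09%, for the lysosome genes, and 22.7% for the 4 lists. Beside them stand 5.78% of all genes and 8.72% of the genes within the CPM range of the members, and no test of these shares was made. The lists, too, were chosen with earlier results of these data known. At 16 h, Stx17 was called in fasted against HFD mice, higher by 0.23 ± 0.05 on the log2 scale (SE, adjusted p = 0.0447, edgeR). That call held in 4 of the 18 fits without 1 mouse, and the adjusted p was 0.0534 by edgeR with the round of cages as a term and 0.407 with the counts of a cage added up.

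Markers of some cell types moved with fasting at 24 h. Of 5 microglial markers, 3 fell (P2ry12, Cx3cr1 and Tmem119), with a median of -0.42, and their summed level ran from 112.6 to 163.1 CPM in chow and from 92.6 to 149.04 in fasted mice. Of 5 endothelial markers, 3 fell (Tek, Cldn5 and Flt1), with sums of 174.9 to 278 and 155.003 to 227 CPM. Of 6 astrocyte markers, Aqp4 and Gja1 fell, while 4 had log2 fold changes above 0 and the median was 0.09, with sums of 3180 to 4442 and 3481 to 5053 CPM. None of 8 neuronal markers passed, with a median of 0.09 and sums of 2678 to 4277 and 3167 to 4571 CPM. Mobp rose among 6 oligodendrocyte markers, of which 2 were above 0 with a median of -0.13, and Pdgfra among 3 of their progenitors, of which 1 was above 0 with a median of -0.15. None of the 5 markers each of red blood cells, choroid plexus and pituitary passed, the last 2 with sums from 26.2 to 3814 and from 5.01 to 1062 CPM over the mice. The part of these shifts in the results above was not tested.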

How the data were processed

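RNA was extracted with the RNeasy Micro Kit and libraries were made with NEBNext kits after rRNA depletion. Per the labels, reads were processed with bcl2fastq 2.20.0, STAR 2.7.3a (GRCm39) and R 4.1.3, and the authors deposited raw counts of uniquely mapped reads per Ensembl gene, without normalization. Neither the annotation nor the strand setting used for counting is given in the sources used here, so reads on exon bases that 25 of the 39 members share with another gene are uncertain. Symbols came from GENCODE vM39 (56310 of 57010 rows).

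Column headings repeat 1 mouse name 5 times, so columns were assigned to 37 mice and not to regions, and their counts were added up per mouse. Low columns have fewer than 1000000 counts, or fewer than 16000 genes expected in a draw of 500000. The test was the quasi-likelihood test of edgeR 4.0.16 (R 4.3.3; filterByExpr and TMM, then estimateDisp, glmQLFit and glmQLFTest), with diet as the only term, 1 fit per study, 1 fit of all mice for the difference between studies, and Benjamini-Hochberg adjustment over all genes. CPM are scaled by TMM within a study, so levels are not compared between the studies. The test was tested on simulated data. Alternatives used DESeq2 1.42.0, limma 3.58.1 with equal weight per column, other scaling, filter, threshold, columns, covariates and mice.

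The members and lists were chosen with earlier results of these data known. Every member is described, with values of the mice for those called, those with the highest mean CPM of a step and, at 16 h, those at an unadjusted p under 0.05, and up to 2 called genes a direction are named for each neighbouring list. Bcl2l1 and other genes outside the members are named by that rule. A result that the rule would name is not reported here. Columns of the authors' own comparisons were not part of the files used.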

Additional observations from a re-analysis of the deposited data

Results flagged for a closer look

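Within a group of 6 to 10 mice, a mouse far from all others was found in 21 of 195 sets of values (39 members in 5 groups), or 10.8%. The rule flags about 1 in 20 sets by chance if the sets are independent. Here the members share the same mice, so the 10.8% cannot be read against that rate. Of the 21, 10 lay in the fasted mice of the 24 h study, 6 of them from mouse 1435 and 4 from mouse 1445. Mouse 1435 was the highest for Atg101 (15.2 CPM), Becn1 (53.9), Atg5 (22.9), Atg10 (9.58), Bnip3 (35.3) and Bnip3l (96.1 CPM, the others at 64.8 to 79.6). It had 2 low columns and a mitochondrial share of 12.2%, the highest of the fasted mice. Mouse 1445, with the fewest counts of all mice (57962237), was the highest for Pik3r4 (76.3 CPM, the others at 44.8 to 51.6), Atg14 (20.0 CPM) and Atg2a (74.4 CPM) and the lowest for Ulk1 (69.2 CPM). Counts of both mice include libraries of the block without detectable RNA, as do those of other mice of the 24 h study. Without mouse 1435, 7 members were called up and 1 down, and without mouse 1445 it was 9 up and 1 down.

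In chow mice of the 16 h study, mouse 6 was the lowest for Pik3r4 (52.1 CPM) and Sqstm1 (245 CPM) and the highest for Wdr45 (11.7 CPM, the others at 8.89 to 9.42) and Tfe3 (33.2 CPM). In that group mouse 5 was also the highest for Atg101 (13.6 CPM) and mouse 4 the lowest for Atg4a (6.07 CPM). On HFD, mouse 13 was the highest for Rb1cc1 (162.5 CPM) and the lowest for Atg2b (131.3 CPM), and mouse 16 the lowest for Atg14 (18.9 CPM). Fasted mouse 12 of that study was the highest for Pik3r4 (61.6 CPM), and chow mouse 1452 of the 24 h study the lowest for it (41.7 CPM). Each mouse named in this paragraph has counts from a library that the authors failed. The failure was for low alignment in mice 4 and 1452, for both reasons in mouse 12, and as an outlier in the principal component analysis in the rest. Some mice that were not flagged have failed libraries too, and the part of these libraries was not tested.

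Outside the members, the effect of fasting on Bcl2l1 was larger at 24 h than at 16 h by 0.68 ± 0.09 on the log2 scale (SE, adjusted p = 8.14e-06, edgeR). The studies also differ in housing, the hemisphere sampled, sequencing run and 1 region.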

How the results depend on the processing

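No member passed in any of the 3 comparisons at 16 h under any alternative run, leaving out each of the 18 mice included. At 24 h, 5 to 10 members were called in the 19 fits without 1 mouse, and 4 in place of 10 both with library totals alone and without mice 1423 and 1454, which leaves 17 mice. The other alternatives at 24 h called 7 (no filter) to 11 members, and no call of a member turned its direction. The difference between the studies called 1 member, Wdr45, by DESeq2 (adjusted p = 0.0283) and 1, the same gene, at an adjusted p under 0.1, and 0 with RLE size factors or without low columns. Over all genes DESeq2 called 19 and 5 genes at 16 h for fasted and HFD against chow, where edgeR called 0 of both, and 354 for fasted against HFD, where edgeR called 65. Mice of different diets share no replicate numbers, and with the round of cages as a term 0 members were called in each comparison at 16 h, and 89 genes for fasted against HFD. Regions could not be tested apart, so a change in 1 region may be diluted in the sums, and the members of lowest level, Atg4a, Wdr45 and Atg10, rest on the fewest counts.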
